A study of Mus musculus with 2 samples.

Results

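Gata3, the gene of the zinc finger transcription factor GATA3, was followed through the CD4 T cells of mouse abdominal fat (visceral adipose tissue, VAT). It was 1 gene of the 32285 counted in each of 2 single-cell libraries. It was chosen by name and by no rule on its values, but with earlier results of these data known. The level of Gata3 and the share of cells with a Gata3 transcript are given here for naive-like, Treg-like, Th2-like and Th1-like cells of each library.

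GATA3 binds short DNA words around GATA. Developing CD4 T cells need it in the thymus, and in the periphery it drives the T helper 2 (Th2) programme, opening the locus of the cytokines IL-4, IL-5 and IL-13 and acting on its own gene. Regulatory T cells (Tregs) of non-lymphoid tissues such as fat also carry it, together with ST2, the receptor for the alarmin IL-33, which the gene Il1rl1 encodes. Cytokine signals through STAT6 and STAT5, and Notch signals, raise Gata3, while T-bet, the Th1 factor, opposes GATA3.

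The mice of the first library lacked CD27 (CD27-/-, library CD27_KO), a costimulatory receptor of T cells whose ligand is CD70, and the others were wild-type C57BL/6 mice (library WT). Each library came from pooled mice (10, by the labels, which leave unclear whether per pool, and give no age), after the adipocytes had been removed and the TCRb+ CD4+ cells sorted. The series title, which names the CD27/CD70 pathway and VAT resident Th2 cells, gives the question of how these cells differ without CD27. The CD27_KO library held 6787 T cells with a median of 2200 unique molecular identifiers (UMIs, 1 for each captured transcript), and the WT library held 6202 with a median of 1930.5. Cd27 had 15 UMIs in CD27_KO T cells and 2072 UMIs in WT T cells, so the library titled CD27_KO was the one nearly without it. At least 1 UMI of the T cell receptor complex genes was found in 99.9% of the CD27_KO and 99.8% of the WT cells called T cells here, and the CD8 genes summed to 8.59 and 7.46 CPM (UMIs of a gene scaled to the same total in all cells). The libraries shared 12 cell barcodes, and the Gata3 values below moved by less than their counting error without them.

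With 1 library of pooled mice per genotype, the spread between mice is unknown, and no test was made between CD27_KO and WT. Every interval is an exact 95% interval that covers counting error only. A level is the sum of Gata3 UMIs over the cells of a state divided by all their UMIs, in CPM, and a ratio is the log2 of CPM in CD27_KO over CPM in WT.

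In the mm10 annotation (GENCODE vM21) Gata3, ENSMUSG00000015619, lies on the minus strand of chromosome 2, from 9857078 to 9890034. Its main transcript of 6 exons runs from 9857078 to 9878600, and the 3′ untranslated region, where a 3′ assay reads, fills 9857078 to 9858372 in the last exon. The last 500 bases of this transcript matched no other gene at 90% identity over 60 bases. The sequence around the start of that transcript is shown because every level below is a count of its product, and GATA words at its own gene are part of the background given above. In RefSeq's promoter windows (GRCm38.p6, 250 bases before the start and 50 after it) the Gata3 window, chr2:9878551-9878850 on the minus strand, held 1 match to the words AGATAA or AGATAG or TGATAA or TGATAG, which were searched on both strands and are shown in capitals. It begins at base 37 of the transcript.
Gata3: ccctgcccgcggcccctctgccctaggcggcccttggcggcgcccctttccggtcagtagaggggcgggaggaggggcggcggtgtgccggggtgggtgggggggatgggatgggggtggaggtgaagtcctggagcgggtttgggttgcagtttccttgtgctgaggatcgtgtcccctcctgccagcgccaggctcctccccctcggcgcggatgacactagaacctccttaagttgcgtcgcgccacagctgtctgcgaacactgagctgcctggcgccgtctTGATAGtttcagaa
Of 32851 such windows in the mouse genome, 29.8% held at least 1 of these words. Il1rl1 is shown beside it because it is a listed GATA3 target whose level was among the 10 most like that of Gata3 across clusters (below). Its windows, chr1:40429320-40429619 and chr1:40439379-40439678, both on the plus strand, held 5 words and 1 word.
Il1rl1, upstream start: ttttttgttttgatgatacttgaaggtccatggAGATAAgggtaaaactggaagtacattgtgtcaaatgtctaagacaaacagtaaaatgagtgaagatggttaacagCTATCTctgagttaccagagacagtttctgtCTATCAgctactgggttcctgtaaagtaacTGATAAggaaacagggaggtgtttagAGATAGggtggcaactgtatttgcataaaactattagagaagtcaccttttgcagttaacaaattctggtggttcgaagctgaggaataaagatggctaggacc
Il1rl1, downstream start: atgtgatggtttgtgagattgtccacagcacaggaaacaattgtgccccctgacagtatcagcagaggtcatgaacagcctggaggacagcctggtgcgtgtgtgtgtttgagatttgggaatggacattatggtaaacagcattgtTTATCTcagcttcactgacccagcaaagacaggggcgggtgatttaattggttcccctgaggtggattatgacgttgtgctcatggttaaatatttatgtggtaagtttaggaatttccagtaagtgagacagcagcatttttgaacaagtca
At least 5 words were found in 18 windows, 0.0548% of all. A word in these windows is a match of letters and no measured binding.

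The states were clusters of cells named by marker genes, and Gata3 was kept out of both the clustering and the markers, so that its own counts did not set the states. The Th2 markers did include Il4, Il5, Il13, Il1rl1, Ccr8 and Il17rb, which are also among the genes listed below as activated by GATA3. The levels of Gata3 and of these genes in Th2-like cells are therefore not independent of the naming. Naive-like cells, led by Dapl1, Ccr7 and Igfbp4, were 1 cluster, with 314 CD27_KO and 1303 WT cells. Treg-like cells were 2 clusters. Cluster 4 was led by Foxp3 and Ctla4 (186 CD27_KO and 209 WT cells), and cluster 5 by Cxcl2, Areg and Ikzf2 (314 CD27_KO and 1207 WT cells). Th2-like cells were cluster 0, led by Calca, Csf2 and Tnfsf11 (1181 CD27_KO and 306 WT cells), and cluster 3, led by Tnfsf11, Rnf128 and Csf1 (438 CD27_KO and 67 WT cells). Of 13 Th2 markers, only 6 passed the naming rule in cluster 0 and 7 in cluster 3. Their median log2 enrichments were 0.67 and 0.63. Th1-like cells, led by Itga1, Lyst and Slamf1, were 1 cluster (cluster 2), with 1015 CD27_KO and 377 WT cells. They were not all the cells with Th1 markers. Cluster 14 (97 CD27_KO and 53 WT cells) and cluster 6 (350 and 1208) had median Th1 log2 enrichments of 1.24 and 0.84, against 0.82 in cluster 2. Both stayed unnamed, as they also had NK-receptor markers, and their Gata3 is given apart from the Th1-like values. The Th2-like share of T cells was 23.9% in CD27_KO and 6.01% in WT, the Treg-like share 7.37% and 22.8%, the naive-like share 4.63% and 21.0%, and the Th1-like share 15.0% and 6.08%. The direction of the Th1-like difference depended on the clustering. With each library clustered alone, 111 CD27_KO and 1653 WT cells took that name. At Leiden resolution 1.5 they numbered 912 and 931, and at resolution 0.5 they numbered 2913 and 1429.

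Gata3 was graded across the states taken whole, in the same order in both libraries: highest in Th2-like cells, then Treg-like, then Th1-like, and lowest in naive-like cells. Single clusters did not all keep this order (below). Th2-like cells had 678 CPM in CD27_KO (95% interval 658 to 699, 4162 Gata3 UMIs) and 551 CPM in WT (509 to 595, 648 UMIs). Treg-like cells had 361 CPM in CD27_KO (334 to 389, 676 UMIs) and 408 CPM in WT (391 to 427, 2011 UMIs). Th1-like cells stood well below both of these whole classes, at 188 CPM in CD27_KO (174 to 203, 686 UMIs) and 162 CPM in WT (143 to 184, 248 UMIs). Naive-like cells had 40.1 CPM in CD27_KO (26.4 to 58.3, 27 UMIs) and 38.3 CPM in WT (31.2 to 46.5, 101 UMIs). The intervals of neighbouring states did not overlap in either library.

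Over naive-like cells, Gata3 was 16.9-fold higher in Th2-like cells of CD27_KO and 14.4-fold higher in those of WT. At least 2-fold higher in the same comparison were 20.8% of 6236 genes with at least 100 UMIs in CD27_KO and 15.3% of 3729 in WT, and 2.61% and 1.61% of them stood above Gata3. Treg-like over naive-like cells gave 9-fold in CD27_KO and 10.7-fold in WT, where 20.6% of genes in each library were at least 2-fold higher. Th1-like over naive-like cells gave 4.69-fold in CD27_KO and 4.23-fold in WT, against a background of 21.2% and 13.6% of genes. These folds depended on which cells took the naive-like name. States were also set by marker transcripts, where Th2-like meant a UMI of Il1rl1, Il4, Il5 or Il13 and none of Foxp3. So set, naive-like cells had 138 CPM in CD27_KO and 73.6 CPM in WT. Th2-like cells were then 4.41-fold above them in CD27_KO and 6.18-fold in WT, and Th1-like cells 1.33-fold and 1.86-fold. Over 9 other ways of defining the states, Th2-like over naive-like cells ranged between 4.41-fold and 16.8-fold in CD27_KO and between 6.18-fold and 14.4-fold in WT, without a value at 1000 genes per cell, where no cluster was Th2-like. Treg-like over naive-like cells ranged between 2.65-fold and 9.32-fold in CD27_KO and between 3.53-fold and 10.9-fold in WT. Th1-like over naive-like cells ranged between 1.07-fold and 5.03-fold in CD27_KO and between 1.35-fold and 4.23-fold in WT, so the lowest step of the order was small under some of them.

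The step between Th2-like and Treg-like cells differed in size between the libraries. Th2-like over Treg-like cells gave a log2 ratio of 0.91 in CD27_KO (0.79 to 1.03) and 0.43 in WT (0.30 to 0.56). This is 1.88-fold in CD27_KO and 1.35-fold in WT, where 2.29% and 1.48% of genes were at least 2-fold higher. The median gene of these comparisons stood at -0.06 in CD27_KO and -0.08 in WT, and 2.65% of genes in CD27_KO and 7.66% in WT stood above Gata3. Under the other ways of processing, the ratio ranged between 0.57 and 1.26 in CD27_KO and between 0.049 and 0.76 in WT. It was 0.64 in CD27_KO and 0.049 in WT (-0.18 to 0.27), where the step was within counting error, with cluster 3 alone as the Th2-like cells, which is what remained when cluster 0 could take the name of innate type 2 cells in spite of its T cell receptor transcripts. It was 0.57 and 0.14 with states set by marker transcripts in single cells.

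**Figure D1:**
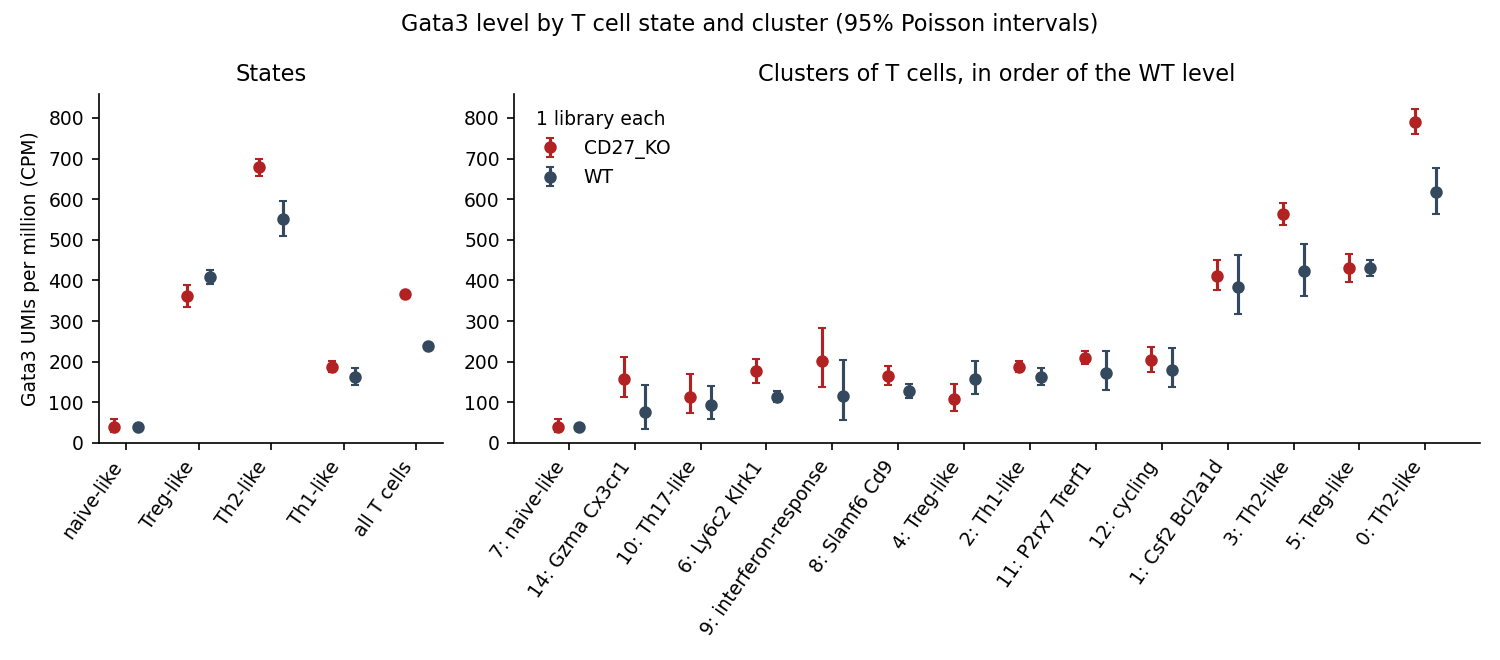
Gata3 level in CPM (vertical axis, linear) in the 4 states and all T cells (left) and in the 14 T cell clusters (right), with CD27_KO left of WT and 95% Poisson intervals. Cluster labels give the cluster number and its name or 2 leading genes. Th2-like cells reached 678 CPM in CD27_KO and 551 CPM in WT, and naive-like cells 40.1 and 38.3 CPM.

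Within the Th2-like and Treg-like cells Gata3 was uneven. In Th2-like cells, cluster 0 (medians of 2409 UMIs in CD27_KO and 2183.5 in WT) had 790 CPM in CD27_KO (759 to 822) and 618 CPM in WT (564 to 676). Cluster 3, whose cells held more transcripts in all (medians of 5810.5 and 5198 UMIs), had 563 CPM (537 to 591) and 423 CPM (362 to 491). In Treg-like cells, cluster 5 had 430 CPM in CD27_KO (397 to 465) and 430 CPM in WT (411 to 449), with median depths of 4268 and 2899 UMIs. Cluster 4 had 107 CPM (77.4 to 144) and 157 CPM (120 to 201), with 1995 and 1688 UMIs. Cluster 5 was thus 4.02-fold above cluster 4 in CD27_KO and 2.74-fold above it in WT, where 4.09% and 7.73% of genes were at least 2-fold higher. Cluster 4 lay below Th1-like cells in CD27_KO (174 to 203 CPM), and its interval overlapped theirs in WT (143 to 184 CPM). In WT, the Th2-like cluster 3 was not above the Treg-like cluster 5. Foxp3 was lower in cluster 5 than in cluster 4 (209 against 316 CPM in CD27_KO, and 164 against 229 CPM in WT), so the Treg-like cells with less Gata3 were not those with less Foxp3.

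Across all 14 T cell clusters, neighbours in the order often stood apart at the top and rarely did so below it. In CD27_KO, clusters 0, 3 and 5 followed each other, with cluster 5 and cluster 1 (led by Csf2 and Bcl2a1d, 412 CPM) not apart beyond counting error. Then came a drop to 210 CPM in cluster 11, led by P2rx7 and Trerf1. Among the 9 clusters between 107 and 210 CPM none stood apart from the next in that range, and the lowest of them, cluster 4, stood above naive-like cells by 1.42 on the log2 scale (0.69 to 2.17). Clusters that were not neighbours could still differ there, as cluster 11 (193 to 227 CPM) and cluster 8 (142 to 190 CPM) did. In WT, cluster 0 stood above cluster 5, and clusters 5, 3 and 1 (430, 423 and 385 CPM) were not apart. Below them, no WT cluster between 180 CPM (cycling cells) and 38.3 CPM (naive-like cells) stood apart from the next. The interval of cycling cells (137 to 234 CPM) still lay above that of cluster 6 (99.9 to 128 CPM). That of naive-like cells (31.2 to 46.5 CPM) overlapped only that of cluster 14 (34.3 to 142 CPM, on 9 UMIs).

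Gata3 was seen as few transcripts per cell, so the share of cells with a UMI depends on depth. Before any correction it was 78.3% in Th2-like cells of CD27_KO and 66.2% in those of WT, 49.4% and 55.9% in Treg-like, 40.1% and 41.1% in Th1-like, and 7.64% and 6.91% in naive-like cells. Each cell was then thinned to 1300 UMIs, which left out 54 CD27_KO and 536 WT T cells below that depth. Th2-like cells then had a share of 54.9% in CD27_KO (52.4 to 57.3) and 45.2% in WT (39.9 to 50.4). Treg-like cells had 29.3% (25.3 to 33.6) in CD27_KO and 35.0% (32.4 to 37.7) in WT. Th1-like cells had 20.1% (17.6 to 22.7) and 18.1% (14.4 to 22.4), and naive-like cells 3.83% (2 to 6.6) and 4.76% (3.64 to 6.1). The states kept the order of their CPM. Th1-like cells were deeper, with medians of 3197 UMIs in CD27_KO and 3752 in WT, against 2909 and 2581 in Treg-like cells.

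The states also differed in how many Gata3 UMIs a cell held. At 1300 UMIs, 24.5% of Th2-like cells in CD27_KO and 19.1% in WT held 2 or more, as did 10.9% and 11.4% of Treg-like cells, 2.17% and 3.2% of Th1-like cells and 0.319% and 0.323% of naive-like cells. The variance of the thinned count over its mean, which is 1 where cells differ by counting error alone, was 1.43 in CD27_KO and 1.71 in WT for Th2-like cells, and 1.82 and 1.53 for Treg-like cells. It was 1.23 and 1.24 in Th1-like cells and 1.12 and 1.08 in naive-like cells. For the same relative spread this ratio is nearer to 1 where the mean is lower, so it does not rank the states by how uneven their cells were. The most Gata3 UMIs in 1 cell, unthinned, were 21 in CD27_KO and 19 in WT, both in Th2-like cells, against 3 and 4 in naive-like cells.

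**Figure D2:**
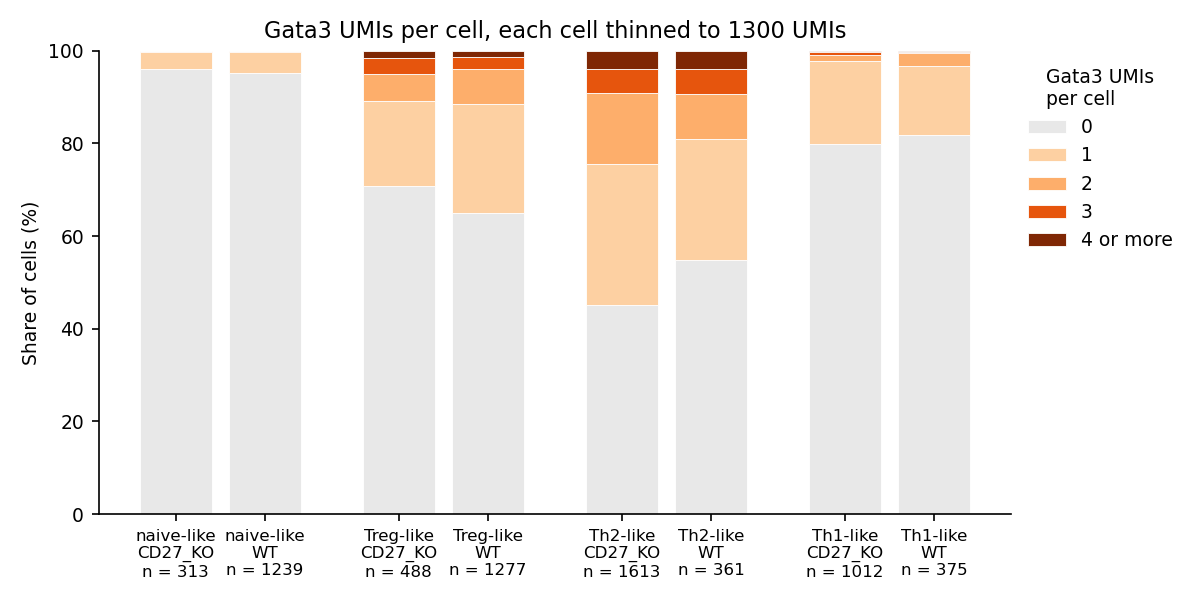
Share of cells (vertical axis, %) with 0, 1, 2, 3 and 4 or more Gata3 UMIs after each cell was thinned to 1300 UMIs, for the 4 states, with CD27_KO left of WT and the number of cells under each bar. Cells with no Gata3 UMI made up 45.1% of Th2-like cells in CD27_KO and 54.8% in WT, and 96.2% and 95.2% of naive-like cells.

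The level in cells that should lack Gata3 was also read. The 3 clusters with markers of B cells, dendritic cells and stromal cells held 66 CD27_KO and 136 WT cells, 20 and 45 of them with a Gata3 UMI. Of all cells in these clusters, 33 in CD27_KO and 83 in WT also held UMIs of Cd3e, Cd3d, Cd3g or Trac, and all 72 and 116 Gata3 UMIs of these clusters lay in them. The other 33 CD27_KO and 53 WT cells, with medians of 3661 and 2193 UMIs, held 0 Gata3 UMIs, which allows a share of up to 9.09% of cells in CD27_KO and 5.66% in WT, and a level of up to 27.6 and 21.9 CPM. They were picked for holding no T cell receptor transcript, which also selects cells with little stray T cell RNA, so they set no limit on the background. Whether the naive-like share (7.64% in CD27_KO and 6.91% in WT, at medians of 2074.5 and 1868 UMIs) lies above background cannot be told from these cells. No cells were removed as doublets, and whether the cells with both kinds of transcript were doublets was not tested.

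Over all T cells, Gata3 was higher in CD27_KO, and the difference was smaller once each class of cells had the same share in both libraries. CD27_KO T cells had 365 CPM (357 to 374, 7228 UMIs) and WT T cells 238 CPM (231 to 246, 3772 UMIs), a log2 ratio of 0.62 (0.56 to 0.67), or 1.53-fold. The median of 9754 genes in the same cells stood at 0.17, 7.02% of genes reached 1.5-fold or more, and 6.00% stood above Gata3. With every class weighted equally between the libraries, the level was 309 CPM in CD27_KO and 275 CPM in WT, a log2 ratio of 0.17, and with every cluster weighted so it was 0.24. WT levels weighted by the CD27_KO shares of classes gave 311 CPM, 0.38 above the WT library's own level on the log2 scale. The thinned share of cells with a Gata3 UMI was 29.5% in CD27_KO and 18.9% in WT.

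The libraries carried their Gata3 transcripts in different cells. In CD27_KO, Th2-like cells held 57.6% of all Gata3 UMIs of T cells and Treg-like cells 9.35%. In WT, Th2-like cells held 17.2% and Treg-like cells 53.3%, so the state with most of the Gata3 RNA was the Th2-like one in CD27_KO and the Treg-like one in WT. Cells with 4 or more Gata3 UMIs numbered 581 in CD27_KO, of which 75.4% were Th2-like and 9.47% Treg-like, and 252 in WT, of which 19.4% were Th2-like and 68.7% Treg-like. All Treg-like cells among them, 55 in CD27_KO and 173 in WT, were in cluster 5, and cluster 4 had none.

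**Figure D3:**
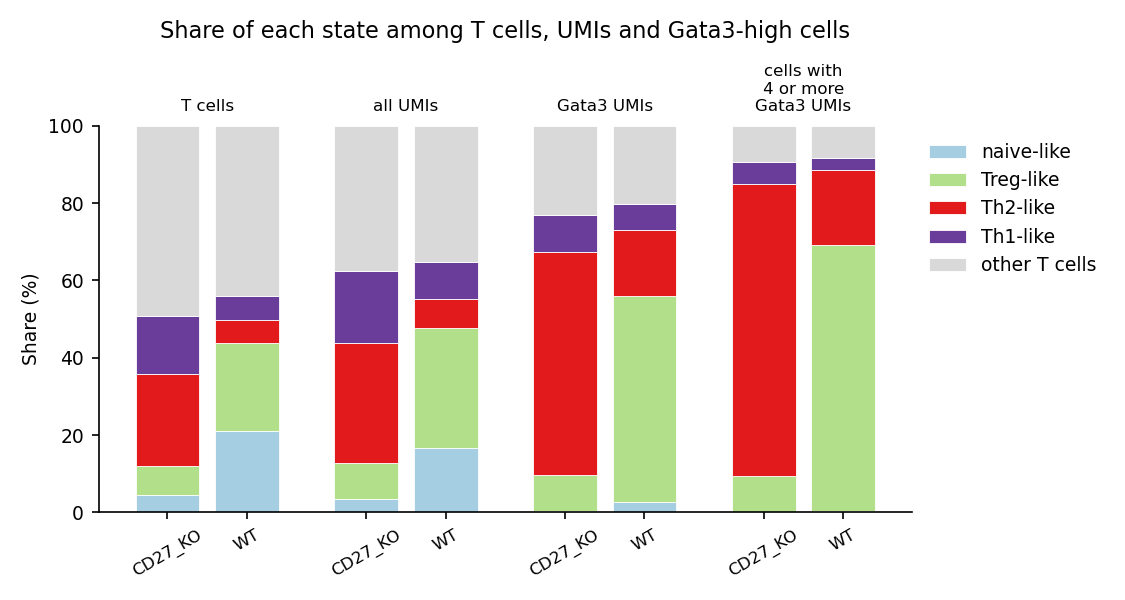
Share (vertical axis, %) of the 4 states and of all other T cells among T cells, all UMIs, Gata3 UMIs and cells with 4 or more Gata3 UMIs, with CD27_KO left of WT in each pair. Th2-like cells held 57.6% of the Gata3 UMIs in CD27_KO and 17.2% in WT, and Treg-like cells 9.35% and 53.3%.

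Within states, the CD27_KO over WT ratios of Gata3 were small. Th2-like cells gave a log2 ratio of 0.30 (0.18 to 0.42), with the median gene at 0.12 and 27.0% of genes above Gata3. Both Th2-like clusters were higher in CD27_KO, by 0.35 (0.21 to 0.50) in cluster 0 and 0.41 (0.19 to 0.65) in cluster 3. Th1-like cells gave 0.21 (0.00 to 0.43), with the median gene at 0.13. Naive-like cells gave 0.07 (-0.60 to 0.69) on 27 CD27_KO and 101 WT UMIs, and a difference inside that interval was not detectable at this depth. It was 0.90 (0.64 to 1.16) in cells picked by naive marker transcripts, and 1.36 with each library clustered alone, where 627 CD27_KO cells took the name in place of 314. None of these 3 states passed 1.5-fold, where 7.85% of genes in Th2-like, 6.97% in Th1-like and 9.18% in naive-like cells were higher. The Th2-like ratio was positive under all 14 other ways of processing, between 0.18 and 0.46, and the Th1-like one under all 15, between 0.07 and 0.80. The Th1-like class itself was not stable: at resolution 1.5, where the ratio was 0.80, it held 912 CD27_KO and 931 WT cells, in place of 1015 and 377.

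Treg-like cells gave the one lower value, -0.18 (-0.31 to -0.05), with the median gene at 0.10 and 2.54% of genes at least 1.5-fold lower, but the clusters did not share it. Cluster 5 gave 0.00 (-0.13 to 0.13) and cluster 4 gave -0.55 (-1.15 to 0.04) on 43 CD27_KO and 61 WT UMIs. Cluster 4, with its low Gata3, made up 186 of 500 Treg-like cells in CD27_KO and 209 of 1416 in WT. The direction also turned with the processing, which changed the cells in the class as well. The ratio was 0.24 with Gata3 kept among the clustering genes and markers, where the class held 878 CD27_KO and 1477 WT cells. It was 0.24 with no cell filter (908 and 1457 cells) and 0.013 with at least 1000 genes per cell (346 and 753 cells). It was -0.016 in cells with a Foxp3 UMI.

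**Figure D4:**
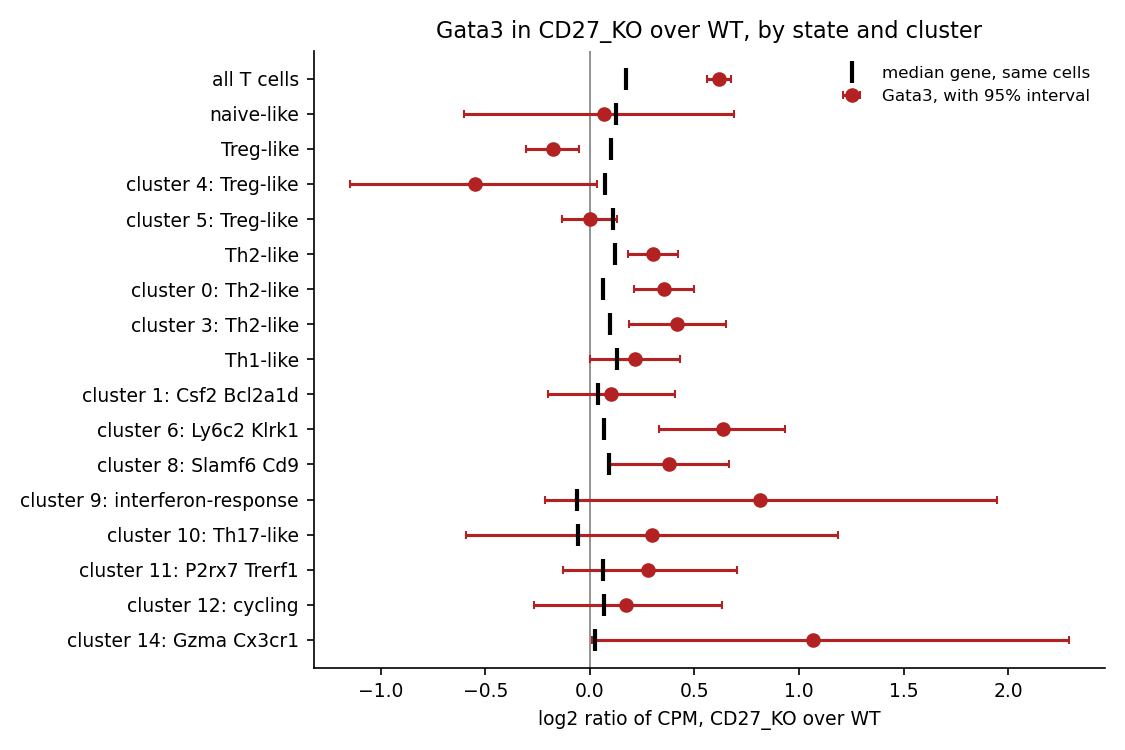
Log2 ratio of Gata3 CPM in CD27_KO over WT (horizontal axis) for all T cells, the 4 states and the T cell clusters, with 95% counting intervals and the median gene of the same cells as a black tick. All T cells stood at 0.62, Th2-like cells at 0.30 and Treg-like cells at -0.18.

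Outside the 4 states, the other T cells together had 225 CPM of Gata3 in CD27_KO (214 to 236) and 138 CPM in WT (128 to 148), a log2 ratio of 0.71 (0.59 to 0.84), with 6.48% of genes at least 1.5-fold higher. Cluster 6, led by Ly6c2, Klrk1 and Xcl1, had 176 CPM in CD27_KO (148 to 207) and 113 CPM in WT (99.9 to 128), a ratio of 0.64 (0.33 to 0.94), where 4.61% of genes were at least 1.5-fold higher. Cluster 8, led by Slamf6, Cd9 and Cd200, had 165 CPM and 127 CPM, a ratio of 0.38 (0.09 to 0.66), where 4.96% of genes were at least 1.5-fold higher. Cluster 14, led by the cytotoxic granule gene Gzma and by Cx3cr1, had 157 CPM in CD27_KO on 43 UMIs and 75.0 CPM in WT on 9 UMIs. Its ratio was 1.07 (0.01 to 2.29), where 8.7% of genes were at least 1.5-fold higher. That interval takes each UMI as independent, but the CD27_KO UMIs lay in 22 cells, with 8 UMIs in 1 cell. The WT UMIs lay in 8 cells. The thinned share of cluster 14 cells with a Gata3 UMI was 11.5% (5.86 to 19.6) in CD27_KO. In WT it was 10.4% (3.47 to 22.7), so the share did not differ beyond counting error. In clusters 1, 9, 10, 11 and 12 the interval held 0. Cluster 11 had 210 CPM of Gata3 in its 1541 CD27_KO cells and 173 CPM in its 196 WT cells, and cluster 1 had 412 and 385 CPM. Th17-like cells (cluster 10) were among the lowest, at 114 CPM in CD27_KO and 92.6 CPM in WT.

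Reading states from single transcripts in place of clusters set Foxp3 and Il1rl1 beside Gata3 directly. Cells with a Foxp3 UMI had 409 CPM of Gata3 in CD27_KO and 413 CPM in WT. Those with Il1rl1 too had 523 CPM (481 to 568, 159 cells) in CD27_KO and 482 CPM (452 to 514, 392 cells) in WT. Those without Il1rl1 had 185 CPM (151 to 225, 158 cells) in CD27_KO and 198 CPM (165 to 236, 216 cells) in WT. Foxp3 cells with and without an ST2 transcript thus differed in Gata3 in both libraries beyond counting error, and the CD27_KO over WT ratio in each held 0, at 0.12 (-0.04 to 0.27) and -0.09 (-0.49 to 0.29). The Il1rl1 cells were deeper, with medians of 5528 UMIs in CD27_KO and 3890 in WT against 2872.5 and 2423. Cells with Il1rl1 and no Foxp3 UMI had 630 CPM (612 to 650, 1735 cells) in CD27_KO and 458 CPM (435 to 483, 938 cells) in WT, a ratio of 0.46 (0.37 to 0.55). A cell with no Foxp3 UMI at this depth may still express it.

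The thinned cells were also split by whether they held a Gata3 UMI. In Treg-like cells, Il1rl1 was seen in 38.5% of cells with Gata3 and 17.97% of those without in CD27_KO, and in 57.3% and 37.2% in WT. In Th2-like cells the shares were closer, 67.0% with and 60.03% without in CD27_KO, and 61.3% and 55.1% in WT, and in WT these intervals overlapped. Foxp3 in Treg-like cells was seen in 23.1% of cells with Gata3 and 29.0% without in CD27_KO, and in 19.7% and 22.2% in WT, with overlapping intervals.

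Cytokine transcripts were rarer. In Th2-like cells, Il4 was seen in 16.3% of cells with Gata3 and 14.1% without in CD27_KO, and in 11.7% and 7.07% in WT. Il5 was seen in 4.18% and 2.34% in CD27_KO and in 11.04% and 6.57% in WT, and Il13 in 2.26% and 1.79% in CD27_KO and in 6.75% and 2.02% in WT. Each share was higher in the cells with Gata3, and each pair of intervals overlapped. Over all T cells, Ccr7, the lymph node homing receptor of naive cells, was seen in 0.756% of cells with Gata3 and 3.66% without in CD27_KO, and in 3.74% and 10.8% in WT. Ifng was seen in 6.91% and 11.1% in CD27_KO and in 5.89% and 7.25% in WT, and Tbx21, which encodes T-bet, in 2.98% and 4.19% and in 2.99% and 2.59%. In Th1-like cells alone, Ifng was seen in 18.7% of cells with Gata3 and 17.8% without in CD27_KO, and in 16.2% and 13.03% in WT, with overlapping intervals.

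Among genes whose products carry signals to Gata3, all 15 listed were measured over all T cells. Past 1.5-fold, 1 was higher in CD27_KO and 1 lower, where 7.02% of all genes were higher and 2.86% lower. Their median log2 ratio was 0.20, against 0.17 for all 9754 genes. Rbpj, the DNA-binding partner of Notch, had 207 CPM in CD27_KO and 113 CPM in WT, a ratio of 0.88 (0.80 to 0.96). Its level in Th2-like cells was 223 CPM in CD27_KO and 144 CPM in WT, and in Th1-like cells 229 and 123 CPM. Notch2 (0.47) and Nfkb1 (0.44) came next. Myb, a transcription factor of early T cell stages, was lowest at -1.12 (-1.54 to -0.71) on 78 CD27_KO and 136 WT UMIs, followed by Stat5b (-0.36) and Stat5a (-0.26). Stat6, which relays IL-4, had 37.9 CPM in CD27_KO and 30.5 CPM in WT.

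Of 22 partners, antagonists and other type 2 transcription factors, 20 were measured. Past 1.5-fold, 3 were higher in CD27_KO and 5 lower, where 7.02% of all genes were higher and 2.86% lower. Their median log2 ratio was 0.26, against 0.17 for all genes. The higher ones were Gfi1, a repressor induced with GATA3 (25.1 CPM in CD27_KO and 14.1 CPM in WT, 0.83), Pparg, the lipid-sensing factor of fat-resident Tregs and Th2 cells (26.2 and 15.6 CPM, 0.75), and Id2, an inhibitor of E proteins (875 and 572 CPM, 0.61). The lower ones were Zbtb32, a GATA3-binding repressor (1.47 CPM in CD27_KO and 6.13 CPM in WT, -2.06), Foxp3 (27.7 and 57.4 CPM, -1.05), Irf4 (11.5 and 21.7 CPM, -0.91), Id3 (5.31 and 9.61 CPM, -0.86) and Bach2 (25.9 and 39.5 CPM, -0.61). Pparg was 70.9 CPM in Th2-like cells of CD27_KO and 56.1 CPM in those of WT, and Foxp3 was 232 CPM in Treg-like cells of CD27_KO and 169 CPM in those of WT. These ratios over all T cells include the mix of states. Zfpm1, whose product FOG1 restrains GATA3, had 30.3 CPM in CD27_KO and 25.9 CPM in WT (0.23).

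Of 10 genes listed as activated by GATA3, 9 were measured. They include Rad50, which lies in the cytokine locus that GATA3 opens. Past 1.5-fold, 1 was higher in CD27_KO and 2 lower, where 7.02% of all genes were higher and 2.86% lower. Their median log2 ratio was 0.25, against 0.17 for all genes. Il4 was higher, at 54.997 CPM in CD27_KO and 11.1 CPM in WT (2.31, 2.08 to 2.55), and in Th2-like cells at 124 and 73.9 CPM. Il5 and Il13 went the other way within the Th2-like state: Il5 had 52.0 CPM in CD27_KO and 121 CPM in WT there, and Il13 32.9 and 80.7 CPM, though over all T cells their ratios were 0.56 and 0.19. The IL-10 gene Il10 had 4.45 CPM in CD27_KO and 26.3 CPM in WT (-2.56), and Areg, the gene of the growth factor amphiregulin, 180 and 473 CPM (-1.39). Il1rl1 had 333 CPM in CD27_KO and 244 CPM in WT over all T cells (0.44), with 867 and 702 CPM in Th2-like, 363 and 582 CPM in Treg-like, 41.4 and 12.4 CPM in Th1-like and 2.97 and 1.14 CPM in naive-like cells. Genes listed as GATA3 targets thus stood on both sides within the cells where Gata3 itself gave 0.30.

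All 5 genes that GATA3 represses were measured, and Runx3 and Tbx21 among them are also in the partner list. Past 1.5-fold, 1 was higher in CD27_KO and 0 were lower, where 7.02% of all genes were higher and 2.86% lower. Their median log2 ratio was 0.31, against 0.17 for all genes. Ifng had 121 CPM in CD27_KO and 71.9 CPM in WT (0.75), with 187 and 114 CPM in Th1-like and 39.4 and 18.7 CPM in Th2-like cells. Tbx21 had 29.1 CPM in CD27_KO and 22.7 CPM in WT (0.36), with 44.7 and 45.1 CPM in Th1-like cells. Il12rb2 (0.31), Runx3 (0.29) and Stat4 (0.12) lay nearer to the median gene.

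The genes whose levels followed Gata3 most closely were ranked by Pearson's r of log2(CPM + 10) over 27 points, 1 per cluster and library with at least 50 cells, among 6041 genes with at least 500 UMIs. The points share 2 libraries, their depths and a clustering built from many of these genes, so r is a description. The 10 highest were Tnfaip3 (0.95), Nfkbid, Spty2d1, Phlda1, Il1rl1 (0.93), Ptpn13, Nfkbiz, Jak2, Isy1 and Frmd4b (0.90). Within 1 library, Tnfaip3 gave 0.94 over the 14 points of CD27_KO and 0.96 over the 13 of WT, and Il1rl1 0.91 and 0.95. Tnfaip3, Nfkbid and Nfkbiz encode regulators of NF-kB signalling, and Jak2 a kinase of cytokine receptors. Tnfaip3 had 1208 CPM in CD27_KO and 1113 CPM in WT in Th2-like cells, 702 and 781 CPM in Treg-like, 552 and 422 CPM in Th1-like and 172 and 157 CPM in naive-like cells.

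At the other end were Txk (-0.83), a kinase of T cell receptor signalling, Frat2, Ms4a6b, Cmah and Ube2d1 (-0.69). Txk had 47.3 CPM in CD27_KO and 99.4 CPM in WT in Th2-like cells, and 965 and 816 CPM in naive-like cells. Il4 stood at rank 57 with 0.83, and Foxp3 (0.15) and Tbx21 (0.18) had no such relation over these points. Ccr7 gave -0.62. Of the 8 most similar genes with a RefSeq promoter window, 3 held a GATA word in it (Il1rl1, Nfkbid and Spty2d1), as did 5 of 8 genes of the activated list (Ccr8, Il13, Il1rl1, Il4 and Il5) and 33.0% of 27025 genes in all.

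**Figure D5:**
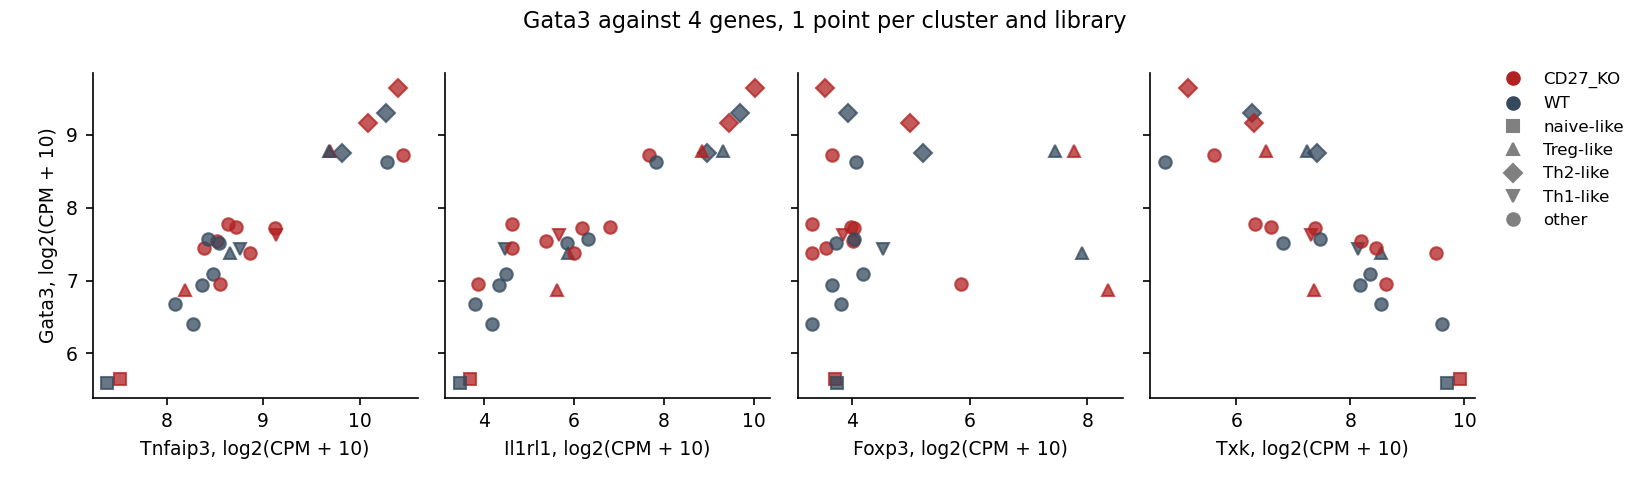
Gata3 (vertical axis) against Tnfaip3, Il1rl1, Foxp3 and Txk (horizontal axes), all as log2(CPM + 10), with 1 point per cluster and library, colour for the library and symbol for the state. Pearson's r over the 27 points was 0.95 for Tnfaip3, 0.93 for Il1rl1, 0.15 for Foxp3 and -0.83 for Txk.

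Gata3 was the GATA family member of these cells. Gata1, the erythroid factor, had 17 UMIs in CD27_KO and 11 UMIs in WT T cells, and Gata6 had 1 UMI in CD27_KO and 0 in WT. Gata2, Gata4 and Gata5 had 0 UMIs in both libraries, which allows up to 0.152 CPM in CD27_KO and 0.190 CPM in WT. Genes that overlap the Gata3 locus took few UMIs: Gm13256, an antisense gene across its start, had 13 in CD27_KO and 34 in WT, 4930412O13Rik 8 and 7, and 9230102O04Rik, on the same strand, 88 and 82. How far reads could pass between these overlapping genes was not tested.

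Markers of other cells were read beside the Th2-like level, because innate lymphoid cells of type 2 and mast cells or basophils can also express GATA factors. The summed T cell receptor complex genes had 4341 CPM in CD27_KO and 4632 CPM in WT in Th2-like cells, against 4988 and 5209 CPM in all T cells. The 8 innate type 2 markers summed to 408 CPM in CD27_KO and 428 CPM in WT in Th2-like cells, against 172 and 87.8 CPM in all T cells, with 7 of 8 seen and Rxrg at 0. They include Calca, the first leading gene of cluster 0, and their part in the Gata3 level was not tested. The 6 mast cell or basophil markers summed to 1.30 and 4.25 CPM in Th2-like cells, with 5 of 6 at 0 (Mcpt4, Mcpt8, Fcer1a, Cma1 and Gata2). Depth moved with the level inside the Th2-like state: in 4 equal bins of cells from the fewest UMIs to the most, Gata3 had 803, 770, 767 and 579 CPM in CD27_KO and 684, 634, 541 and 492 CPM in WT. In each bin the CD27_KO value was the higher one, but the intervals were apart only in bin 3 (722 to 814 against 457 to 635). The bins were cut within each library, so they were not matched in depth. Bin 1, for example, spanned 826 to 2094 UMIs in CD27_KO and 754 to 1807 in WT.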

How the data were processed

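Per the labels' protocols, sorted VAT CD4 T cells were loaded on a 10x Genomics 3′ platform, 1 pooled library per genotype. The groups come from the titles, as the genotype entries do not differ. The labels name kit versions that differ, and the crosses with a CD70 transgene that they mention are not analysed here. Per the file headers the authors used Cell Ranger 6.1.1, and the submitters' processing notes name mm10. The deposited matrices hold raw UMI counts of called cells, 6893 barcodes with 20191704 UMIs for CD27_KO and 6398 with 16628623 for WT.

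Computed here: barcodes under 500 genes or over 10% mitochondrial UMIs were dropped (40 CD27_KO and 60 WT barcodes), and the rest were scaled to 10000 counts, logged and clustered together on 2000 variable genes without Gata3 (30 components, 20 neighbours, Leiden resolution 1). No doublet caller was run. Leaving out the 5% deepest cells was 1 of the alternatives, and it does not identify doublets. A cluster took the type with the highest median marker enrichment if at least 3 markers passed 1.5-fold (pseudocount 10 CPM) in 5% or more of its cells. The median itself also had to reach 1.5-fold, and no other lymphocyte type could come to 0.5 of it. Nor could another lymphocyte type have more markers among the 10 leading genes. Cluster 8, whose best type was naive, stayed unnamed because its median log2 enrichment was 0.40. Cluster 14 did so because the NK-receptor type came to 1.20 against 1.24 for Th1. Cluster 6 scored highest for NK-receptor (2.06, with Th1 at 0.84) but had more Th1 markers among its leading genes. The innate type 2 name needed T cell receptor transcripts under 0.5 of those of other cells. This rule was set after the clusters were seen, and differences from the study's own names may come from it.

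Levels carry exact Poisson intervals, shares Clopper-Pearson and ratios exact conditional ones, all at 95% and taking each UMI as independent. Ratios cover genes with at least 100 UMIs, except that Gata3 is given below that minimum in clusters 9, 10 and 14. A count of 0 is read against 3 counts. Genes were named by rule: Gata3, its family, the 3 furthest of each list in each direction, 8 genes split by a Gata3 UMI, and the 10 most and 5 least similar genes. Id3, Bach2, Stat6 and Zfpm1, Il13 and Il1rl1 in the lists, and the genes overlapping Gata3 were added after their values were seen. The members and lists were chosen with earlier results of these data known. The alternatives were other clusterings, cell filters, scalings, marker gates and thinning depths. The ratio step was run on simulated Poisson counts. These lack the extra spread between cells seen for Gata3, so that run does not show how well the intervals hold for it. Tools were scanpy 1.11.5 and anndata 0.12.19 with igraph 0.11.9, scikit-learn 1.9.0, scipy 1.17.1, pandas 2.3.3 and numpy 2.4.6 under Python 3.11.15, BLAST 2.17.0 and matplotlib 3.10.9.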

Additional observations from a re-analysis of the deposited data

Results flagged for a closer look

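The Gata3 ratio of CD27_KO over WT had opposite directions in the 2 states with the highest Gata3. It was -0.18 on the log2 scale in Treg-like cells and 0.30 in Th2-like cells, and the difference was not tested, since each genotype has 1 library. The Treg-like direction was not stable: cluster 5 alone gave 0.00 (-0.13 to 0.13), and under 3 of 15 alternatives the Treg-like ratio was positive, at 0.24, 0.24 and 0.013. Where it was 0.24, the Treg-like class held 878 and 908 CD27_KO cells in place of 500. Its WT cells numbered 1477 and 1457 in place of 1416.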

How the results depend on the processing

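The log2 ratio of CD27_KO over WT over all T cells (0.62) was positive under all 10 alternatives. It was 0.17 and 0.24 with every class or cluster given the same share in both libraries. It was 0.43 with at least 1000 genes per cell and 0.53 without ribosomal and mitochondrial UMIs. It was 0.44 and 0.47 relative to the median gene with at least 100 UMIs or 1 UMI, 0.69 as a mean of each cell's CPM and 0.71 without the 5% deepest cells. In Th2-like cells (0.30, positive under all 14) it was 0.46 with each library clustered alone. In Th1-like cells (0.21, positive under all 15) it was 0.51 and 0.80 at Leiden resolution 0.5 and 1.5, 0.51 with Gata3 kept for clustering and naming, and 0.55 with clustering seed 1. In naive-like cells (0.07, positive under 11 of 15) it was 1.36 with each library clustered alone and 0.90 by marker transcripts. In Treg-like cells (-0.18) it turned positive under 3 of 15, all of which also changed the cells in the class. It was 0.24 with Gata3 kept, 0.24 with no cell filter and 0.013 with at least 1000 genes. It was also -0.017 with each library clustered alone, -0.016 by marker transcripts, -0.31 relative to the median gene with at least 1 UMI and -0.36 as a mean of each cell's CPM.

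Th2-like over Treg-like cells was positive under all 14 alternatives in each library, though within counting error in WT with the innate name open. In CD27_KO (0.91) it was 1.26 at resolution 1.5, 0.72 with Gata3 kept, 0.72 with no cell filter, 1.04 relative to the median gene, 1.17 as a mean of each cell's CPM, 1.08 without the 5% deepest cells, 0.57 by marker transcripts, 1.17 with seed 1 and 0.64 with the innate type 2 name open to cells with a T cell receptor. In WT (0.43) it was 0.76 at resolution 1.5, 0.56 with Gata3 kept, 0.14 by marker transcripts and 0.049 (-0.18 to 0.27) with that name open. At least 1000 genes per cell left no Th2-like cluster, so that setting gave none of these values. The causes of these shifts were not tested.

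The share of cells with a Gata3 UMI moved with the thinning depth. At 1000 UMIs, 2000 UMIs and unthinned, it was 24.0%, 41.0% and 44.2% in all CD27_KO T cells and 15.7%, 29.3% and 29.6% in WT, 46.7%, 66.7% and 78.3% in CD27_KO Th2-like cells and 37.6%, 57.6% and 66.2% in WT, and 24.6%, 40.8% and 49.4% in CD27_KO Treg-like cells and 29.5%, 48.4% and 55.9% in WT. It was 14.4%, 28.7% and 40.1% in CD27_KO Th1-like cells and 14.4%, 21.6% and 41.1% in WT, and 1.91%, 7.91% and 7.64% in CD27_KO naive-like cells and 3.15%, 6.49% and 6.91% in WT.

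The same shares by cluster, seed 1, the open innate name, the removal of barcodes seen in both libraries and the ranges of the folds over naive-like cells were chosen after seeing the data. No paired analysis was possible because each genotype is 1 library with no replicate number. Depth limits the naive-like ratio, with 27 Gata3 UMIs in CD27_KO.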

Other observations

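Depth went with Gata3 differently in the libraries and states. In 4 equal bins of all T cells from the fewest UMIs to the most, Gata3 had 256, 331, 378 and 401 CPM in CD27_KO, and 215, 172, 167 and 302 CPM in WT. In Treg-like cells the bins held 316, 226, 393 and 394 CPM in CD27_KO and 455, 389, 420 and 400 CPM in WT. Taf3, the next gene on the same strand, had 53.99 CPM in CD27_KO and 42.9 CPM in WT T cells.

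The locus of the cytokine genes that GATA3 opens also holds Rad50, which had 83.1 CPM in CD27_KO and 55.7 CPM in WT T cells, a log2 ratio of 0.58. Of the transcription factors named beside Gata3, Maf was 972 CPM in CD27_KO and 443 CPM in WT Treg-like cells, and was chosen for mention after its values were seen. Rora, another factor of type 2 cells, had 265 CPM in CD27_KO and 129 CPM in WT Th1-like cells, also chosen after its values were seen.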
